A study of Drosophila melanogaster with 2 samples.

Results

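Binding peaks whose summit lay in an annotated 5′ UTR at the promoter of a single gene were taken from a chromatin immunoprecipitation (ChIP-seq) map of Atonal in Drosophila melanogaster embryos. A peak was included when its summit, the position of its highest signal, lay in an annotated 5′ UTR and within 500 bp of an annotated protein-coding start, and when no pair of such starts on opposite strands lay within that distance. Of the 3005 peaks on the main chromosome arms in the conservative list, 563 met this rule, or 18.7% (95% Wilson interval 17.4 to 20.2%). The full conservative list held 3009 peaks, of which 4 lay on unplaced sequences. In all, 789 summits of the list lay in a 5′ UTR. Of the others, 218 were left out because starts on both strands lay within 500 bp, here called divergent. The last 8 were left out because they lay more than 500 bp from any protein-coding start. The flies were transgenic for ato fused to eGFP, whole embryos aged 0 to 18 h were used, and the fusion protein was precipitated with an antibody against GFP. This 1 group has 2 biological replicates, 1 and 2, whose chromatin was sonicated to fragments of 200 to 800 bp. Whole embryos mix all tissues, so a peak cannot be assigned to the cells that express ato. The files hold peak positions and a signal per peak but no read counts, so depth is unknown, and no control sample was analysed here.

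The 5′ UTR is the part of a messenger RNA between its first base and the start codon, so a summit in it lies in transcribed DNA just past the site where RNA polymerase II begins. Atonal is a proneural basic helix-loop-helix protein that specifies chordotonal organs and founder photoreceptors, and with its partner Daughterless it binds the E-box, CANNTG. Promoters of broadly expressed fly genes often carry the DNA replication-related element (DRE), Motif 1 or Motif 7. Promoters of regulated developmental genes more often carry an initiator at the start, the downstream promoter element (DPE) or the nearby MTE beyond it, and runs of GAGA.

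The following stretches show the 5 elements that were more frequent at the summits than in the flanks, each taken from the 3 strongest peaks that held the element within 50 bp of the summit. They were read from the RefSeq dm6 assembly on the strand of the gene, 5′ to 3′, with the element in capitals. Positions are in bp along the gene, with 0 at the nearest annotated start. The DRE, TATCGATA, lay at positions -10 to -3 at Sumo (chr2L:6967636-6967665, minus strand), which encodes the small ubiquitin-like modifier. It lay at 16 to 23, inside the transcribed region, at Nipsnap (chrX:16073534-16073563, minus strand).
Sumo DRE: tacctatcgtgTATCGATAcacaccgatag
Nipsnap DRE: tcttaggtccaTATCGATAgccaagcgcat
Motif 1, GGTCACAC, was present as its reverse complement at positions -41 to -34 of Ube4B, a ubiquitin chain elongation factor (chr2L:13019170-13019199, minus strand). It was likewise reversed at -60 to -53 of eIF2A, a translation initiation factor (chr3L:21824894-21824923, plus strand).
Ube4B Motif 1: tccatctttaaGTGTGACCacgccgcggcc
eIF2A Motif 1: acggcaaccgtGTGTGACCaattcaagcac
The initiator, TCAGTT or TCAGTC, lay at 0 to 5 of fz3, a Frizzled family gene (chrX:770014-770043, plus strand), and reversed at 3 to 8 of Ube4B (chr2L:13019127-13019156, minus strand).
fz3 initiator: agtgtcggtggtTCAGTTtgttggaaacag
Ube4B initiator: gccaccagaccaAACTGAaacactgttcgt
The DPE letters, CGGACG or CAGACG, lay reversed at 4 to 9 of CG2926 (chr3R:5588359-5588388, minus strand). They lay at -37 to -32 of CG15439 (chr2L:4453058-4453087, minus strand), where the lower-case letters just before them spell the DRE.
CG2926 DPE: tctaaatgaaatCGTCTGtggcacaaaaat
CG15439 DPE: tttatcgatataCAGACGgaatactattct
The MTE letters, CGAACGG, lay at 12 to 18 of SP1173 (chr3L:6703492-6703520, minus strand) and at 25 to 31 of FER, a tyrosine kinase gene (chr3R:9394504-9394532, minus strand). They lay reversed at 71 to 77 of robo2, which encodes a Slit receptor of growing axons (chr2L:1420365-1420393, minus strand).
SP1173 MTE: tagttttctttCGAACGGcgaggcgtttg
FER MTE: aacattcgaggCGAACGGttcgctgtgtt
robo2 MTE: tatatccgtatCCGTTCGattcgtcgggt
In 5 of these 11 stretches the element stood in reverse, and the DPE letters of CG2926 and CG15439 were not at the place, about 27 bp past the start, where a DPE is known to act.

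Summits lay close to the start, on its transcribed side. Their median position was 29 bp downstream of the nearest protein-coding start, with quartiles of 9 and 61.5 bp and a range of -491 to 499 bp. Of the 563, 480 lay downstream of the nearest start, 11 exactly at it and 72 upstream of it. A summit can be upstream of 1 start and still in a 5′ UTR, because a longer transcript began further out: for 70 of the 72 the nearest start belonged to the same gene as the 5′ UTR. Within 50 bp of a start lay 351 summits (62.3%), within 100 bp 492 (87.4%) and within 200 bp 547 (97.2%). The first exon of the transcript held 549 of the summits and a later exon 14. The 5′ UTRs that held them had a median length of 330 bp (quartiles 150 and 593 bp), and 497 of the summits (88.3%) lay in the 50% nearest to the start of the transcript. The start codon was a median of 420 bp further along the genome, introns included. These positions follow in part from the rule and carry no test.

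**Figure D1:**
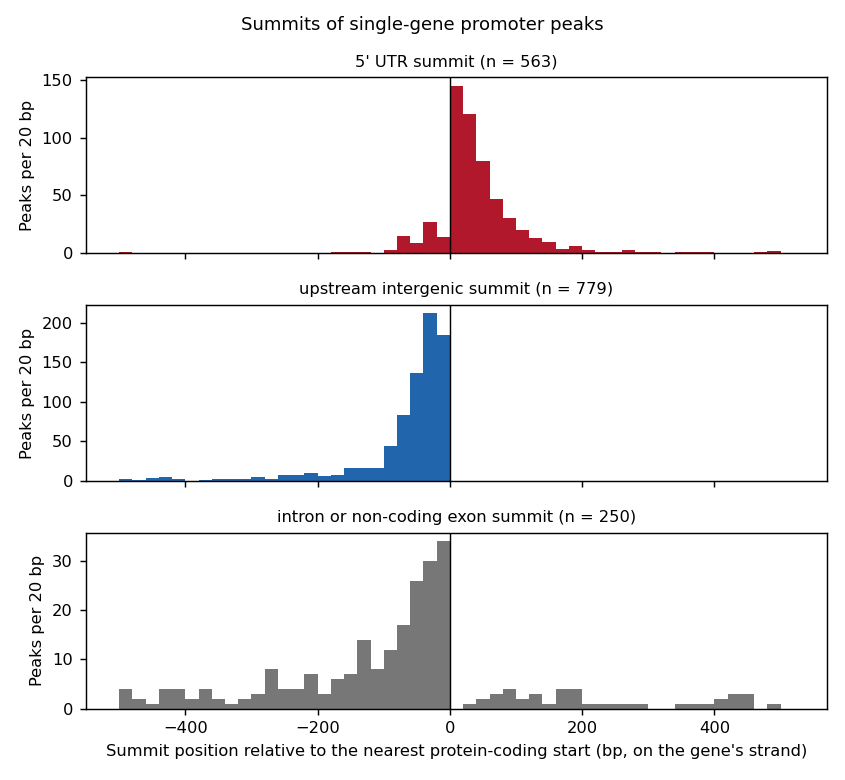
Histograms of summit position (bp, on the strand of the gene, 0 at the nearest protein-coding start) in bins of 20 bp, for single-gene promoter peaks with a 5′ UTR summit (n = 563), an upstream intergenic summit (n = 779) and a summit in an intron or non-coding exon (n = 250). The 5′ UTR summits pile up just past the start, with a median of 29 bp, against -40 bp for upstream intergenic summits and -56.5 bp for intron or non-coding exon summits.

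With limits of 250 and 1000 bp in place of 500 bp, the rule gave 658 and 444 peaks, since the limit also sets which pairs of starts count as divergent. The 3 included summits furthest from a start were those of pre-mod(mdg4)-V at 499 bp, JIL-1 at -491 bp and Vdup1 at 489 bp, with signals of 102.6, 64.04 and 71.58. The 3 nearest 5′ UTR summits outside it were those of BNIP3 at 530 bp, ph-p at 531 bp and Atg1 at 560 bp, with signals of 71.47, 96.29 and 61.54. Within the limit, 542 peaks had starts of 1 gene and 21 had starts of 2 or 3 genes on the same strand, and 397 had 1 annotated start and 166 had more. The 563 peaks formed 557 distinct intervals, and 521 of the 563 had the same width of 336 bp.

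The 5′ UTR peaks were weaker than peaks centred just upstream of a start. Signal is the authors' deposited value per peak, with no stated scale, so it is used only within a list. Its median was 79.8 for the 563 peaks (quartiles 66.4 and 102, range 2.29 to 476), against 118 for 779 upstream intergenic peaks (quartiles 80.6 and 170). The medians were 81.8 for the 250 single-gene peaks in an intron or non-coding exon, 100 for 778 divergent promoter peaks and 88.6 for all 3005. Of the 5′ UTR peaks, 76 (13.5%, Wilson interval 10.9 to 16.6%) were among the strongest 25% of the list, against 312 (40.1%, 36.7 to 43.5%) of the upstream intergenic peaks. Among the weakest 25% were 154 (27.4%) of the 5′ UTR peaks and 101 (13.0%) of the upstream intergenic peaks. Wilson intervals here cover the counting of peaks only. Within the 563, the Spearman correlation of signal with the distance from the start, counted alike in both directions, was -0.332 across peaks, which are not independent replicates. The median signal was 88.6 for the 83 summits upstream of or at the start, 81.8 for 296 summits 1 to 50 bp downstream, 73.5 for 117 summits 51 to 100 bp downstream and 66.0 for 67 summits further downstream.

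The strongest of these peaks was at Capr (FBgn0042134), which encodes Caprin, an RNA-binding regulator of translation. It had rank 8 in the whole list (chr3L:18673098-18673326), with a signal of 476.2. In the separate lists of the replicates its signal was 260.4 in replicate 1 and 221.9 in replicate 2, and its summit lay 73 bp upstream of the nearest of 2 starts and 91 bp into the longer transcript. Sumo (FBgn0264922) had a signal of 427.0 in the combined list, 206.3 in replicate 1 and 232.7 in replicate 2, with its summit 1 bp past the start (chr2L:6967532-6967772). Both genes ranked within the first 30 peaks of each replicate.

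The next strongest peak was at CG9135, which had signals of 201.4 and 179.5 in replicates 1 and 2 and its summit exactly at a start (chr2L:6050697-6050901). CkIalpha, a casein kinase of Wnt and Hedgehog signalling, had 154.3 and 180.0 in replicates 1 and 2 (chrX:12653642-12653864). PRL-1, a phosphatase gene, had 165.9 and 146.9, with its summit 89 bp downstream of the start (chr2L:16251588-16251808). Rpn10, which encodes a ubiquitin receptor of the proteasome, had 125.4 and 175.2, with its summit at 25 bp (chr3L:21536921-21537106). The other 4 of the 10 strongest were Nipsnap, CG10565, CG30349 and OstDelta, a subunit gene of the oligosaccharyltransferase, with combined signals of 325.9, 300.1, 292.6 and 285.2. All 10 overlapped a peak in the thresholded list of each replicate.

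Over all 563 the replicates ranked the peaks only moderately alike. In the ranked list of replicate 1, 562 peaks had an overlapping peak, with a median signal of 44.0 (quartiles 35.1 and 59.0, range 24.8 to 260). In that of replicate 2, 560 did, with a median of 38.9 (32.5 and 50.9, range 25.8 to 233). These ranked lists held 118733 and 141198 peaks, so an overlap with them says little about replicate support. Of the 779 upstream intergenic peaks, 778 and 776 had such an overlap. Across the 559 found in both, the log2 signals had a Spearman correlation of 0.486 and a Pearson correlation of 0.696, as a description across peaks of 2 libraries. The strongest peaks were high in both replicates, while most of the 563 lay in the lower part of their own range in each. The conservative list was thresholded by the irreproducible discovery rate (IDR). The global IDR used here is the expected share of peaks not repeatable between the replicates among those ranked at least as high. The median -log10 global IDR of the 563 was 2.69, from 2.00 up to 5, the highest value in use, which 20 of them reached.

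**Figure D2:**
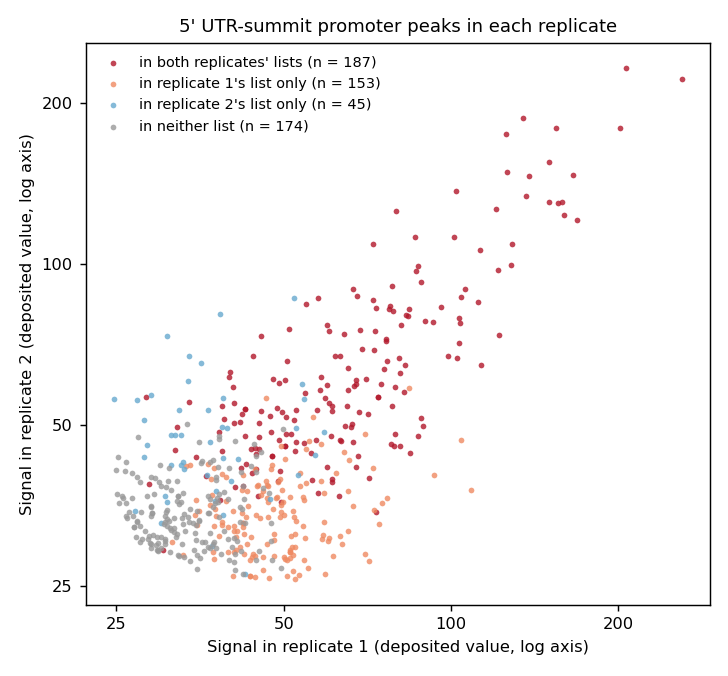
Deposited signal of each 5′ UTR-summit peak in replicate 1 (x, log axis) and replicate 2 (y, log axis), for the 559 peaks found in both ranked lists, coloured by the thresholded lists that hold an overlapping peak. Peaks in both lists (187) reach 260 and 233, and the 174 shown in neither list sit at the low end of both axes.

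Fewer of the 5′ UTR peaks than of the upstream intergenic peaks were present in the list of each replicate alone. This comparison used lists that the rule did not use, though they come from the same 2 replicates as the conservative list. The thresholded list of replicate 1 held an overlapping peak (1 bp or more) for 341 of 563 (60.6%), against 619 of 779 upstream intergenic peaks (79.5%; two-sided Fisher's exact test, adjusted p = 1.07e-13), beside 67.4% of all 3005. That of replicate 2 held 233 (41.4%), against 530 (68.0%; exact test, adjusted p = 7.09e-22), beside 53.1% of all. Both lists held 187 (33.2%, Wilson interval 29.4 to 37.2%), against 480 (61.6%, 58.2 to 65.0%; exact test, adjusted p = 3.91e-24), beside 45.8% of all. Among the strongest 50% of peaks these gaps were -4.23, -10.6 and -12.8 percentage points (exact tests, adjusted p = 0.0496, 0.000906 and 0.000732), against -18.9, -26.7 and -28.4 over all. Of the 563, a further 154 were in the list of replicate 1 only, 46 in that of replicate 2 only, and 176 (31.3%) in neither of these lists.

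The gap to peaks in introns or non-coding exons was smaller. Of those 250 peaks, 68.8% were in the list of replicate 1 (adjusted p = 0.0411), 46.8% in that of replicate 2 (adjusted p = 0.167) and 40.8% in both (adjusted p = 0.0471; two-sided Fisher's exact tests, adjusted over all 6 comparisons). The calls for replicate 1 and for both lists were lost when a 50% overlap was required (exact tests, adjusted p = 0.0746 for each). Units of these tests are peaks, so the p-values do not measure variation between embryo collections.

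Signal moved with this difference. When the comparison was made within quartiles of the signal of all peaks, an alternative chosen after the data were seen, 73 of 76 (96.1%) of the 5′ UTR peaks in the strongest quartile were in both lists, against 306 of 312 (98.1%) of the upstream intergenic peaks. In the next quartile the shares were 58.5% of 130 and 66.8% of 220. They were 13.3% of 203 and 15.1% of 146 in the one below, and 7.14% of 154 and 4.95% of 101 in the weakest. None of the 4 differences passed the test (adjusted p = 0.769 for each, exact tests adjusted over 8), and an unadjusted p under 0.05 was not reached in any.

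**Figure D3:**
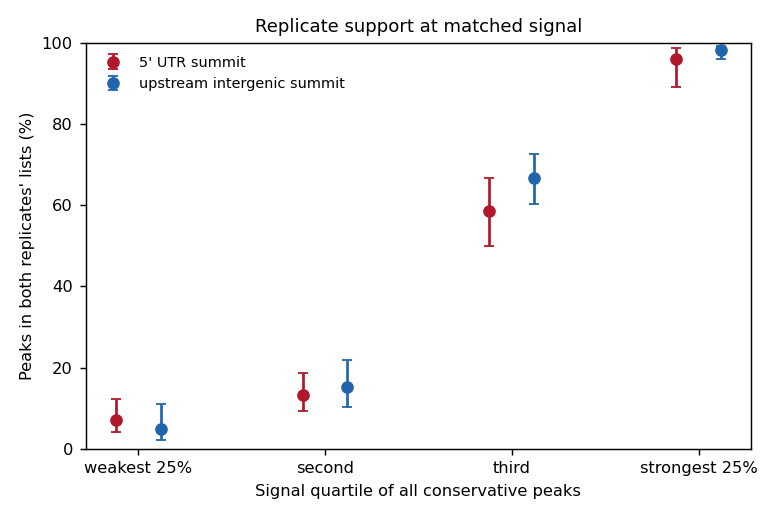
Share of peaks (%) with an overlapping peak in the thresholded lists of both replicates, by quartile of the signal of all conservative peaks, for 5′ UTR summits (red) and upstream intergenic summits (blue), with 95% Wilson intervals. Both classes climb with signal, to 96.1% and 98.1% in the strongest quartile, and their intervals overlap in every quartile.

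The position in the 5′ UTR was repeated in most but not all replicate peaks. Of the 341 peaks with a partner in the list of replicate 1, 275 (80.6%, Wilson interval 76.1 to 84.5%) had the partner's summit again in a 5′ UTR, and 49 had it in intergenic sequence. In replicate 2 the numbers were 177 of 233 (76.0%, 70.1 to 81.0%) and 45. The summit moved by a median of 14 bp in replicate 1 and 17 bp in replicate 2. The combined summits of these 341 and 233 peaks lay a median of 22 and 20 bp past the start. The partner summits lay a median of 17 and 10 bp past it, and 114 and 89 of them were upstream of it. In the combined list 72 of all 563 summits were already upstream of the start, so these counts do not give the number that crossed it. Upstream intergenic summits stayed intergenic in 568 of 619 peaks of replicate 1 (91.8%) and in 491 of 530 of replicate 2 (92.6%). Of the 187 peaks in both lists, 117 (62.6%, 55.4 to 69.2%) had a 5′ UTR summit in both replicates, 54 in 1 of them and 16 in neither. The summits of the replicates were a median of 21 bp apart, and 159 pairs were within 50 bp.

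Of the promoter elements searched, 5 were more frequent at the summits than in flanks 500 bp away, while the E-box CANNTG was not. The rule puts these summits near a start, with the flanks 500 bp from them, so elements that belong to starts are favoured in this comparison. Each of 21 motifs was searched on both strands within 50 bp of the summit and, for comparison, in equally wide windows centred 500 bp upstream and downstream along the gene. With an exact McNemar test against each flank, the larger p kept and adjusted over the 21, 5 motifs (23.8%) were called, all more frequent at the summit, and 6 had an unadjusted p under 0.05. The DRE was within 50 bp of 69 summits (12.3%), against 1.42% and 0.355% of the upstream and downstream flanks (exact test, adjusted p = 2.45e-12). The DPE letters were at 79 summits (14.0%), against 3.02% and 5.86% (exact test, adjusted p = 6.20e-05), and Motif 1 at 27 (4.80%), against 0.888% and 0.355% (adjusted p = 0.000416). The initiator was at 88 (15.6%), against 9.41% and 9.24% (exact test, adjusted p = 0.00818), and the MTE letters at 16 (2.84%), against 0.710% and 0.533% (adjusted p = 0.0496). All 5 elements were thus commoner at the summit than on either side, with the MTE at the edge of the threshold.

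Of these calls the DRE and Motif 1 held in replicate 2's own list. With the list of replicate 2 alone, 2 of the 21 motifs were called. There the DPE exceeded its average flank share by 3.05 percentage points (exact test, adjusted p = 1.00), against 9.59 over all 563. The initiator did so by 6.30 points (exact test, adjusted p = 0.868), against 6.31, and the MTE by 1.63 points (adjusted p = 0.868), against 2.22. Among the strongest 50% of peaks, only the DRE was called. With the list of replicate 1 alone, 5 were called, but the MTE, at 2.35 points, was not among them (exact test, adjusted p = 0.172).

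The E-box was no more frequent at the summits than around them. CANNTG lay within 50 bp of 207 summits (36.8%), between the 33.6% of the upstream and the 44.8% of the downstream flanks (exact test, adjusted p = 1.00). The Ato-type words are CAGGTG or CATGTG preceded by A or T, and so contain an E-box. They lay at 18 summits (3.20%), against 3.91% and 4.09% (exact test, adjusted p = 1.00). Among the 10 E-box cores, CAGCTG stood at 40 summits (7.10%), against 4.44% and 4.09%, and did not pass (exact test, adjusted p = 0.217). With windows of 100 bp it did (exact test, adjusted p = 0.0101), and also with starts limited to 250 bp (adjusted p = 0.0368). CACGTG and CATATG were each at 10 summits (1.78%) and did not pass either. Motif 7, spelled CATCNCTA, was at 26 summits (4.62%), against 1.95% and 0.355%, and missed the threshold (exact test, adjusted p = 0.0584).

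Against upstream intergenic peaks, the 5′ UTR peaks had a DRE or Motif 7 less often, and an initiator, DPE or MTE more often. Within 50 bp of the summit, 5 of 21 motifs (23.8%) differed (two-sided Fisher's exact test, adjusted over 21 motifs and 2 comparisons), 3 higher and 2 lower, and 8 had an unadjusted p under 0.05. By the rule these windows sat at different places, with median summits at 29 bp and -40 bp from the start. The DRE was at 12.3% of the 5′ UTR summits and 28.9% of the upstream intergenic summits (exact test, adjusted p = 4.77e-12), and Motif 7 at 4.62% and 11.2% (adjusted p = 0.000210). Motif 1, at 4.80% and 5.78%, was not called (exact test, adjusted p = 0.721). The DPE letters were at 14.0% and 3.47% (exact tests, adjusted p = 4.82e-11), the initiator at 15.6% and 8.09% (adjusted p = 0.000243) and the MTE letters at 2.84% and 0.642% (adjusted p = 0.0190). With the list of replicate 2 alone, the DPE difference was 4.84 points (exact test, adjusted p = 0.0593), against 10.6 points here, and the MTE difference 1.29 points (adjusted p = 0.773). With the list of replicate 1 alone the MTE difference was 2.06 points (exact test, adjusted p = 0.0792). Against the 250 peaks in introns or non-coding exons, 1 of 21 motifs (4.76%) differed, the initiator, at 15.6% and 7.60% (exact test, adjusted p = 0.0131). That call was lost in the single lists, at 3.97 points in replicate 2 and 4.41 points in replicate 1 (exact tests, adjusted p = 0.935 and 0.554). CANNTG and the Ato-type words passed in neither comparison (adjusted p of at least 0.699): CANNTG was at 36.8%, 38.3% and 37.2% of the 3 classes, and the Ato-type words at 3.20%, 2.31% and 3.60%.

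The rule places most of these summits downstream of the start, and upstream intergenic summits upstream of it. DRE matches near the starts of the 563 had a median position of -25.5 bp and DPE matches of 30.5 bp. A window at the summit thus favours the DRE in the upstream intergenic class and the DPE in the 5′ UTR class. Initiator and MTE matches lay nearer the start, with medians of 3.50 and -0.500 bp. The search was therefore repeated within 100 bp of the nearest start in every class, an alternative chosen after the data were seen. Then 6 of 21 motifs (28.6%) differed from upstream intergenic peaks, 4 higher and 2 lower, and 7 had an unadjusted p under 0.05. The DRE was at 18.7% and 30.6% (exact test, adjusted p = 9.90e-06) and Motif 7 at 6.75% and 15.9% (adjusted p = 5.50e-06). GAGAG was at 35.3% and 18.5% (adjusted p = 2.24e-10), the DPE at 19.5% and 12.1% (adjusted p = 0.00219), the initiator at 27.5% and 19.4% (adjusted p = 0.00499) and the MTE at 5.33% and 2.18% (adjusted p = 0.0170; all by Fisher's exact test). All 5 motifs called at the summit were called again in the same direction, and GAGAG was added. Motif 1 was at 9.95% of the 563 peaks and 78 of the 779 (exact test, adjusted p = 1.00). Against intron or non-coding exon peaks 1 of 21 (4.76%) differed, Motif 1, at 9.95% and 4.40% (exact test, adjusted p = 0.0491), and the initiator was not called, at 27.5% and 26.0% (adjusted p = 0.834). GAGAG was not called in that comparison either, at 35.3% and 36.8% (exact test, adjusted p = 0.834).

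**Figure D4:**
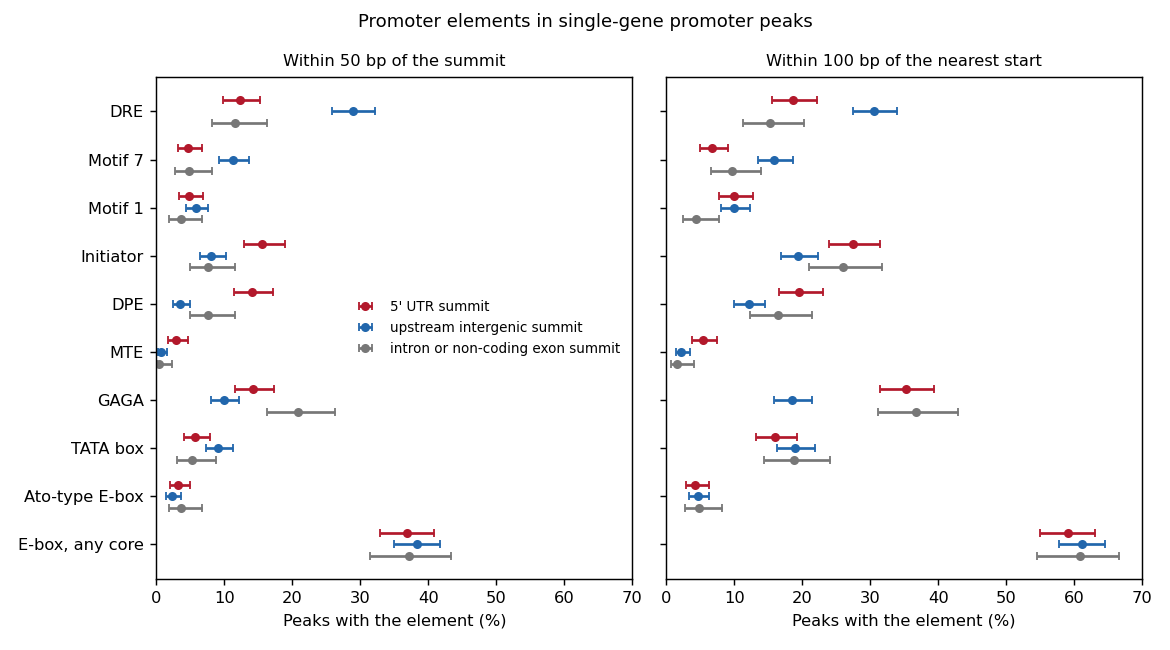
Share of peaks (%) with each element on either strand, within 50 bp of the summit (left) and within 100 bp of the nearest protein-coding start (right), for 5′ UTR (red), upstream intergenic (blue) and intron or non-coding exon summits (grey), with 95% Wilson intervals. Around the start the DRE stood at 18.7% of 5′ UTR peaks and 30.6% of upstream intergenic peaks. GAGA stood at 35.3% and 18.5% of them and at 36.8% of intron or non-coding exon peaks. E-boxes lay at like shares in all 3 classes.

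For reference, the same window around all 19276 annotated protein-coding starts held a DRE at 6.44%, a DPE at 11.2%, an initiator at 30.6%, Motif 1 at 5.68%, Motif 7 at 4.46%, the MTE at 2.66% and CANNTG at 63.9%. GAGAG was at 4813 of them and the Ato-type words at 6.01%. The 5′ UTR peaks thus stood at 18.7% against 6.44% for the DRE, and at 27.5% against 30.6% for the initiator; these pairs were not tested. Some words overlap: TCAGTTG holds both an initiator and a reversed CAACTG, and the last letters of the MTE, CGG, can begin a DPE. A match is a description of letters, not of a protein bound there.

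The comparison around the start was repeated within quartiles of signal. Within the strongest quartile the DRE was near the start of 40.8% of 76 5′ UTR peaks and 39.7% of 312 upstream intergenic peaks. In the next quartile it was near 23.1% and 34.1% (exact test, adjusted p = 0.147), and it passed in none of the 4 quartiles. GAGAG passed in the 2 weaker quartiles, at 41.4% and 23.3% (exact test, adjusted p = 0.0132) and at 45.5% and 27.7% in the weakest (adjusted p = 0.0448). The initiator passed in the second strongest quartile, at 29.2% and 15.5% (exact test, adjusted p = 0.0310). In the strongest it was at 11.8% and 17.6% (exact test, adjusted p = 0.424). Motif 7 passed in the second weakest, at 5.42% and 14.4% (exact test, adjusted p = 0.0455). The DPE and the MTE passed in none (exact tests, adjusted over 6 motifs and 4 quartiles). The DPE differences, strongest quartile first, were 0.270, 7.73, 8.66 and 4.94 percentage points, against 7.47 over all peaks. Those of the MTE were 1.35, 2.66, 2.68 and 3.52 points, against 3.15 over all. Motif 7 was less frequent at the 5′ UTR peaks in each quartile, with differences of -6.71, -6.40, -8.96 and -5.36 points. A smaller number of peaks in each quartile also limits what these tests can call.

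Within the 563 peaks, those with a DRE were the stronger ones. The 105 peaks with a DRE within 100 bp of the start had a median signal of 102 (quartiles 78.4 and 139), and 70 of them (66.7%, Wilson interval 57.2 to 75.0%) were in both replicates' lists. The 458 without one had a median of 76.5 (65.0 and 95.1), and 117 (25.5%, 21.8 to 29.7%) were in both. By contrast, the 110 peaks with a DPE had a median of 77.5 and 26.4% in both lists, against 80.9 and 34.9% for the 453 without. The 155 with an initiator had a median of 76.4 and 25.2% in both lists. Grouped by kind, 90 peaks held a DRE, Motif 1 or Motif 7 and none of the initiator, DPE, MTE or TATA box, and 56.7% of them were in both lists. A larger set of 224 held the reverse combination, and 20.1% of it was in both. A further 80 held both kinds, with 53.8% in both lists, and 169 held neither kind, with 28.4%. These subsets are described without a test.

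Some of the elements lay mainly upstream of the start or close to it. DRE centres lay mostly upstream: 87 of 115 matches (75.7%), with a median of -25.5 bp and quartiles of -44.0 and -0.500 bp. Initiator matches clustered at the start itself, with a median of 3.50 bp, and 153 of 202 (75.7%) were on the sense strand. DPE matches had a median of 30.5 bp, with 64.2% on the sense strand. GAGAG lay further upstream, with a median of -56.0 bp and 46.0% on the sense strand. Motif 7 was on the sense strand in 35 of 40 matches (87.5%) and Motif 1 in 45 of 58 (77.6%). Other elements were spread about the start: Motif 1 had quartiles of -35.2 and 17.5 bp and the TATA box of -33.2 and 59.5 bp. The 30 MTE matches had a median of -0.500 bp with quartiles of -37.0 and 25.8 bp, and 15 lay upstream. The Ato-type words, 26 in number, had a median of 19.5 bp and stood in the sense direction in 14. Seen from the summit, the median DRE lay 33.5 bp upstream and the median GAGAG 103 bp upstream.

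**Figure D5:**
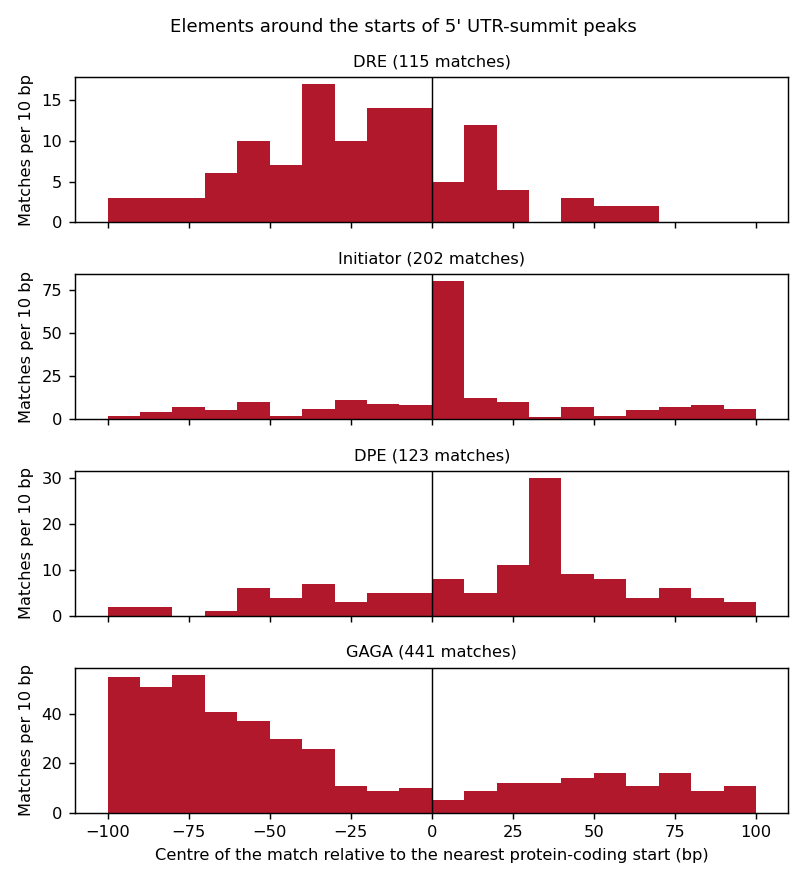
Histograms of the centre of each match (bp, 0 at the nearest protein-coding start, on the strand of the gene) in bins of 10 bp within 100 bp of the starts of the 563 peaks, for the DRE (115 matches), initiator (202), DPE (123) and GAGA (441, overlapping matches counted apart). The DRE lies mostly upstream, the initiator spikes at the start, the DPE peaks near 30.5 bp and GAGA is densest far upstream.

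At the positions where they are known to act, on the sense strand and within 5 bp, the initiator stood at 67 of the 563 starts (11.9%, Wilson interval 9.48 to 14.8%), against 32 of 779 upstream intergenic peaks (4.11%, 2.92 to 5.74%). The DPE did so at 34 (6.04%, 4.35 to 8.32%), against 18 (2.31%, 1.47 to 3.62%). Of the 250 intron or non-coding exon peaks, 19 (7.60%, 4.92 to 11.6%) had the initiator in place and 5 (2.00%, 0.857 to 4.60%) the DPE. Both stood in place together at 4 of the 563, 3 of the 779 and 0 of the 250 starts. No test was made of these counts, and they stand without a share over all annotated starts.

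The nearest starts belonged to 553 genes, 3.96% of 13968 protein-coding genes, beside 5.52% that were nearest to an upstream intergenic single-gene peak. Of 88 cytosolic ribosomal protein genes, 10 (11.4%) had a 5′ UTR peak and 14 (15.9%) an upstream intergenic one. The strongest of the 10 was at RpS30, a protein of the small ribosomal subunit, with signals of 112.8 and 106.2 in replicates 1 and 2. RpS29, of the same subunit, had 78.19 and 91.14, with its summit exactly at the start, as was that of RpL27, a large-subunit protein with 60.89 and 47.74. Of these 10 peaks 6 had a DRE within 100 bp of the start, 1 had GAGAG and none had an initiator.

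Other housekeeping groups had a handful each. Of 44 genes of translation initiation factors, 5 (11.4%) had a 5′ UTR peak. They were led by eIF6, whose protein keeps the ribosomal subunits apart, with 79.70 in replicate 1 and 125.8 in replicate 2, and included eIF2A and eIF3j. Of 48 proteasome genes 3 (6.25%) did: Rpn10, Prosbeta7, a subunit of the catalytic core with 80.58 and 66.67, and Rpn1, of the regulatory particle, with 37.74 and 29.44. Of 87 genes of the respiratory chain and ATP synthase 3 (3.45%) did, all subunits of its complexes. UQCR-14 had 150.3 and 130.9 in replicates 1 and 2, ND-B14.5B 38.76 and 44.65 and ND-B22 42.29 and 32.81. Of 73 mitochondrial ribosomal protein genes 2 (2.74%) did, mRpL3 with 88.21 and 92.85 and mRpL12 with 31.25 and 28.94. Of 33 aminoacyl-tRNA synthetase genes 1 did, HisRS, of 25 Mediator genes 1, MED14, and of 36 Rab GTPase genes 0. Over all 13968 protein-coding genes the share was 3.96%. The initiation factors and the proteasome lay above it, and the respiratory chain, mitochondrial ribosomal proteins, aminoacyl-tRNA synthetases and Rab GTPases below it. The Mediator genes were close to it. Shares of lists this small are set by single genes, and they were not tested.

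Genes of sensory organ formation and of its signals were also present. Of 17 genes of the EGF receptor pathway, 4 (23.5%) had a 5′ UTR peak and 1 (5.88%) an upstream intergenic one. Over all protein-coding genes these shares were 3.96% and 5.52%. A peak of any class was found for 9 of the 17, and for 2619 of all 13968. Shares of lists this small, here and in the next paragraph, are set by single genes and were not tested. At rho, the intramembrane protease that releases the ligand Spitz, the signal was 59.16 in replicate 1 and 48.60 in replicate 2. At edl, which modulates the ETS factors of the pathway, it was 53.91 and 59.66. At aop, the ETS repressor Yan, it was 54.26 and 36.69, and at Raf, the kinase below Ras, 43.74 and 41.95. None of the 4 was in both replicates' lists.

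Of 14 Notch pathway genes, 3 (21.4%) had a 5′ UTR peak and 2 (14.3%) an upstream intergenic one, while 8 had a peak of any class. At numb, which inhibits Notch in 1 daughter of an asymmetric division, the signal was 59.91 and 59.48 in replicates 1 and 2, and the peak was in both lists. At kuz, the protease that cleaves Notch, it was 74.29 and 32.67, and at Delta, the ligand, 35.25 and 46.41, in neither list. Among 13 proneural and related helix-loop-helix genes 1 (7.69%) had such a peak: emc, which lacks a basic region and sequesters proneural proteins, with 51.18 and 75.68. Among 16 sensory and chordotonal genes 2 (12.5%) did. At insc, which orients the spindle of neural precursors, the signal was 40.86 and 46.64. At phyl, an adaptor that directs degradation of Tramtrack, it was 25.66 and 36.55. An upstream intergenic peak was found for 0 of the 13 and 1 of the 16 genes, and a peak of any class for 3 and 6.

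The lists can also be described by how many of their few peaks held each element. Of the 10 peaks of these 4 developmental lists none had a DRE within 100 bp of the start, 8 had GAGAG and 3 an initiator, beside 6, 1 and 0 of the 10 ribosomal protein peaks and 105, 199 and 155 of all 563. The other housekeeping lists varied: a DRE was at 2 of 2 mitochondrial ribosomal protein peaks, 2 of 5 of the initiation factors, 2 of 3 of the respiratory chain and 0 of 3 of the proteasome. It was absent at MED14 and HisRS, and GAGAG was at 2 of the 3 respiratory chain peaks. CANNTG was within that distance of 7 of the 10 developmental and 5 of the 10 ribosomal protein starts. Of the developmental peaks 2 were in both replicates' lists and 4 in neither, against 6 and 1 of the ribosomal protein peaks. The contrast was noticed after the values were seen and was not tested. Neither ato itself nor da, which encodes Daughterless, had a 5′ UTR peak: each was nearest to 1 peak, more than 500 bp from its starts.

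Only Eip75B, the ecdysone-induced nuclear receptor gene with several alternative starts, had more than 2 of these peaks. It had 4, at 3 of its starts on arm 3L, with signals of 70.70, 67.51, 49.83 and 22.56 and summits at 145, 274, 286 and 53 bp from the nearest start. The last 2 overlapped the same peak of each replicate, at 32.33 in replicate 1 and 36.93 in replicate 2, and none of the 4 was in either thresholded list. In all, 8 genes had 2 or more 5′ UTR peaks. Some of the peaks overlapped each other, since the 563 formed 557 distinct intervals. Vap33 had summits with signals of 133.4 and 10.91 on X, and both overlapped peaks in both lists.

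The genes were longer than the median protein-coding gene and more often had several starts. Their median length was 5914 bp, against 3918 bp for genes of upstream intergenic peaks and 2164 bp for all protein-coding genes. Of the 553, 244 (44.1%) had 1 annotated start, against 542 (70.3%) and 73.5%. Genes of intron or non-coding exon peaks were longer still, at 6641 bp, with 28.3% having 1 start. The median 5′ UTR was 315 bp, against 205 bp and 133 bp, a measure linked to the rule since a longer 5′ UTR is more often hit. By chromosome arm, 83 of the 563 peaks (14.7%) were on X, against 171 (22.0%) of the upstream intergenic peaks and 15.7% of protein-coding genes. On 2L were 126 (22.4%), against 125 (16.0%) and 19.0%. None of these shares was tested.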

How the data were processed

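Peak lists on dm6 of 2 ato-eGFP embryo samples (replicates 1 and 2 of 1 group) were used as deposited. Per text files deposited with them, single-replicate lists come from that replicate's alignment, combined lists from both alignments, and all lists also from 1 shared file from which a track of fold change over control was made. No aligner or peak caller is given in the sources used here. The authors' signal per peak has no stated scale, and the -log10 of the global IDR is the authors' deposited value. Signal per replicate is that of the strongest overlapping peak in that replicate's ranked list.

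Gene models were those of Ensembl release 115, and bases were read from RefSeq's dm6 assembly. The conservative list (3009 peaks) was the main list. The thresholded lists held 2501 peaks in replicate 1 and 1737 in replicate 2. A 5′ UTR summit took precedence over other classes. Shares were compared with two-sided Fisher's exact tests and motifs with exact McNemar tests against flanks, with Benjamini-Hochberg adjustment and a threshold of 0.05, in scipy 1.17.1 (Python 3.11.15, pandas 2.3.3, numpy 2.4.6). The tests were tested on simulated data. Wilson intervals (95%) cover the counting of peaks only, and depth is unknown.

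The rule and the gene lists were chosen with earlier results of these data known. Named genes are the 10 with the highest signal, up to 3 per gene list, those with 3 or more peaks, 3 on each side of the distance limit, and for each motif called against the flanks the 3 strongest peaks. ato and da were named in any case, and Raf and Vap33 after their values were seen. In the lists 4 older symbols were updated through RefSeq synonyms. Stretches from 1 chromosome arm are not shown. Alternatives were other peak lists, distances, windows, flanks and overlaps, the strongest 50% of peaks, 1 peak per gene, and downstream summits alone. Windows at the start and tests within signal quartiles were added after the data were seen.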

Additional observations from a re-analysis of the deposited data

How the results depend on the processing

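The differences from upstream intergenic peaks in replicate lists, and those of the DRE, kept their call under every alternative except the signal quartiles, with gaps in replicate lists of -4.23, -10.6 and -12.8 points among the strongest 50%, against -18.9, -26.7 and -28.4. The number of 5′ UTR peaks was 246 and 446 in the list of a single replicate, and 206 among the strongest 50%. Their median position was 15 and 26 bp in single lists, 17.5 bp among the strongest 50% and 37 bp with downstream summits alone. Against intron or non-coding exon peaks, the difference in replicate lists (in percentage points) lost its call in both lists at -7.85 (strongest 50%), and in replicate 1 and both lists at -4.95 and -5.64 (1000 bp), -6.99 and -7.00 (50% overlap) and -7.21 and -6.96 (replicate summit inside the peak). In replicate 2 it gained one at -9.83 (250 bp), -10.4 (1 peak per gene) and -7.63 (downstream summits alone). Within signal quartiles, strongest first, the differences in both lists were -2.02, -8.36, -1.77 and 2.19 against upstream intergenic peaks and 3.46, -9.96, 3.01 and -1.31 against intron or non-coding exon peaks, none called. Motifs called against intron or non-coding exon peaks numbered 0 to 2 in single lists. They numbered 0 among the strongest 50% and with 25 bp windows, 2 with the pooled list, 250 bp, 1000 bp, 1 peak per gene and downstream summits alone, and 4 with 100 bp windows. Against upstream intergenic peaks they numbered 2 (strongest 50%) and 3 (25 bp windows), and 5 in each single list, without the MTE in either and without the DPE in that of replicate 2. Against flanks they numbered 1 and 3 under the same settings, and 2 to 5 in single lists. Differences that passed in no setting changed sign for CANNTG against upstream intergenic peaks, at 1.80 (replicate 2 alone, against -2.58 for replicate 1 alone) and 1.56 (100 bp windows), and for the Ato-type words, at -0.186 and -0.244 (single lists), -0.425 (25 bp windows) and -0.358 (windows at the start). Single lists, quartiles and the strongest 50% also held fewer peaks, and the cause of these changes was not tested. No paired analysis was possible because both replicates belong to 1 group. The unknown depth and the missing scale of the signal limit all values.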
